A study of Homo sapiens with 6 samples.

Results

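Lysosomes are acidic organelles in which hydrolases break down proteins, glycans, lipids and matrix taken up by the cell or delivered by autophagy. The cathepsins are their best known peptidases, and several of them are also secreted, where they cleave extracellular matrix. Many lysosomal genes are read together from a short promoter element, CACGTG with preferred flanks, that is bound by TFEB and TFE3. EWSR1::FLI1, the fusion protein that drives Ewing sarcoma, binds GGAA-rich DNA and both raises and lowers the expression of its target genes.

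The 44 lysosomal and cathepsin genes described here were chosen by name from the 26364 gene symbols of the expression table: 11 cathepsins, 8 proteins of the lysosomal membrane or of cholesterol export, 12 hydrolases of glycans and glycosaminoglycans, 7 hydrolases of lipids or their activators, the peptidase TPP1, the transcription factors TFEB and TFE3, and 3 parts of the proton pump that acidifies the lysosome. The rule uses names and no measured value. Of these names, 43 were found as written, and CTSL2 was found under its current symbol, CTSV. RNAseq was performed on A673/TR/shEF cells, an Ewing sarcoma line that carries EWSR1::FLI1 and was engineered with a doxycycline-inducible shRNA against the chimeric mRNA, in 3 untreated samples (EWSR1::FLI1 high, here EF high) and 3 samples (EWSR1::FLI1 low, here EF low) given doxycycline at 1 µg/mL over 72 h. All 6 samples carried the shRNA construct and grew under Blasticidine and Zeocin, and no sample received doxycycline without the shRNA, so an effect of the drug and of the knockdown cannot be told apart. The data come from 1 cell line. The samples are called independent clones in one label and numbered as experiments in another, so p-values measure the spread between these samples, which may be technical.

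Promoter windows of RefSeq (GRCh38.p14, 250 bases before to 50 after the start of a gene) were read for 31 of the 44 genes. CTSB, CTSK, CTSO, CTSS, LAMP2, LAMP3, HEXA, SGSH, NAGLU, ARSA, PSAP, ASAH1 and ATP6V1H had no entry in the table used. Both strands were searched for CACGTG, for TCACGTG, which contains CACGTG and stands nearer to the TFEB element, and for GGAAGGAA, a pair of neighbouring GGAA units. CACGTG occurred in 10 of the 31 windows (32.3%), against 1298 of the 10847 windows of tested genes (11.97%). TCACGTG occurred in 9 of the 31 (29.0%), against 737 of 10847 (6.79%). These 9 genes were ARSB, NEU1, CTSD, CTSF, LAMP1, ATP6V0D1, GAA, MCOLN1 and CTSA. GGAAGGAA occurred in 3 of the 31 (9.68%), in ARSB, NPC2 and NPC1, against 542 of 10847 (4.997%). A match says only that these letters stand in the window. The stretches below are those of the cathepsins with TCACGTG, of the membrane protein LAMP1 with its cluster of such sites, of MCOLN1, whose level did not change detectably, and of NPC2, which rose and holds GGAAGGAA. Capitals mark the motif on either strand, and each stretch is written 5′ to 3′ on the strand of its gene.
CTSF (chr11:66568703-66568749, minus strand, TCACGTG): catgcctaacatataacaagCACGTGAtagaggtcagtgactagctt
CTSD (chr11:1763948-1763994, minus strand, TCACGTG): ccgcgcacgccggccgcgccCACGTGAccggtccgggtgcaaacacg
CTSA (chr20:45891272-45891334, plus strand, TCACGTG): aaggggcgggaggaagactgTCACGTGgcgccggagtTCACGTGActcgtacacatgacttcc
LAMP1 (chr13:113297026-113297238, plus strand, TCACGTG): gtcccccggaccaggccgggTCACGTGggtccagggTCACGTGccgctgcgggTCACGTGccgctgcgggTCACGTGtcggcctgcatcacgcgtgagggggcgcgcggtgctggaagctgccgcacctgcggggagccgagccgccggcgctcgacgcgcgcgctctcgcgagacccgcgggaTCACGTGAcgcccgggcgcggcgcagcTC
MCOLN1 (chr19:7522562-7522623, plus strand, TCACGTG): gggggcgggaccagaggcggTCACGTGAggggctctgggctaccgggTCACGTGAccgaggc
NPC2 (chr14:74493531-74493578, minus strand, GGAAGGAA): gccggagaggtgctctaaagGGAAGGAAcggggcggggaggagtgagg
LAMP1 held 6 sites, the first of them 193 bases before the start and the last 2 bases before it, so that only the TC of the last is shown. CTSA and MCOLN1 held 2 sites each, and CTSF and CTSD held 1 each. The GGAAGGAA of NPC2 stood 46 bases before the start.

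The knockdown was examined first in FLI1 (ENSG00000151702), which gives the 3′ part of the targeted mRNA. FLI1 was measured at 11.3, 12.7 and 14.2 FPKM (fragments per length of gene and per sequencing depth, scaled between libraries by the authors) in the EF high libraries, replicates 1 to 3, and at 2.91, 4.29 and 3.68 FPKM in the EF low libraries, replicates 1 to 3. Each EF low library was below each EF high library, with a log2 fold change of -1.57 (standard error, SE, 0.18, adjusted p = 0.000676, limma). Fold changes here and below are EF low minus high on the log2(FPKM + 1) scale, on which low genes appear to change less than they did, and a gene is said to rise or fall where its adjusted p was under 0.01 over the 15504 genes with a mean of at least 0.5 FPKM. The Ewing sarcoma markers CD99, NKX2-2, LIPI and STEAP1 were all expressed, CD99 at 84.2 to 144 FPKM. Each EF low library was below each EF high library for all 4 markers, and NKX2-2, LIPI and STEAP1 fell (log2 fold change -1.19, -2.44 and -2.18, adjusted p = 0.00258, 0.000767 and 0.00108, limma). CD99, at -0.53, did not pass with all libraries (adjusted p = 0.067). Reads on genes numbered 6980361 to 16658933 per library. EF low replicate 1 stood apart: it had the fewest reads and a quality weight of 0.172, against 0.463 to 2.79 for the other libraries. It was the lowest of the 3 EF low libraries in 57.0% of all genes tested and in 28 of the 41 lysosomal genes tested (68.3%), so the lysosomal genes whose call changes without it are also given without it. CTSB, CD63, SCARB2, NPC1, LAMP2, HEXA, IDS, PSAP, GM2A, ASAH1 and ATP6V0D1 did not pass with all libraries. They passed in that fit and in no other fit that left out a library. Their highest adjusted p in those other fits lay between 0.0708 (CTSB) and 0.374 (NPC1, limma).

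Of the 44 genes, 41 passed the filter on low values, and CTSZ, IDUA and TFEB did not. The filter used the mean over all 6 libraries. GAA (mean 0.345 FPKM in EF high and 0.845 FPKM in EF low) and SGSH (0.427 and 0.730 FPKM) therefore passed only through the group where they were higher. Both count among the positive changes below, and GAA also among those with an unadjusted p under 0.05 and those without overlap. The log2 fold change was positive for 34 of the 41 and negative for 7. Their median was 0.55 (middle 50% from 0.15 to 0.80), where the median over all genes tested was -0.05 (middle 50% from -0.37 to 0.27). Upon EWSR1::FLI1 knockdown 6 genes rose, namely the peptidases CTSO, CTSF and TPP1, the cholesterol carrier NPC2, the lipase LIPA and the galactosidase GLB1, which is 14.6% of the 41, where 4.51% of all genes tested rose. None of the 41 fell by limma, where 3.37% of all genes fell, and at an unadjusted p under 0.05 the counts were 24 higher and 1 lower, against 15.6% and 18.7% of all genes. With limma-voom on the reads recovered from the FPKM values, 10 rose and none fell, against 6.1% and 5.06% of all genes. At an adjusted p under 0.05, 12 were higher and 1 was lower, against 9.87% and 9.91% of all genes. In 18 of the 41 each EF low library was above each EF high library, and in 1, the sphingomyelinase SMPD1, each was below, against 17.5% and 23.6% of all genes. Scaling and single libraries moved the count of genes that rose: median-ratio scaling gave 14 and quantile normalization gave 16, while without a filter on low values only CTSO and CTSF rose (2 genes). Over all genes the higher calls numbered 994 (6.41%), 992 (6.4%) and 456 (1.86% of 24488 genes) in these settings, and 5.24%, 6.45% and 1.21% of all genes were lower. The count for the lysosomal genes was 16 without EF low replicate 1, where 9.37% of all genes were higher and 4.68% lower. It was 2 without EF low replicate 2 or 3, 2 without EF high replicate 1 or 3 and 1 without EF high replicate 2. None fell in any of these fits. Over all genes, 700 (4.51%) were higher and 522 (3.37%) lower with all libraries. Without EF low replicate 2 or 3, 553 or 419 were higher and 279 or 691 lower. Without EF high replicate 1, 2 or 3, 374, 287 or 322 were higher and 200, 157 or 156 lower. In bulk RNA, more transcript per cell and a larger share of cells with the transcript cannot be told apart.

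**Figure D1:**
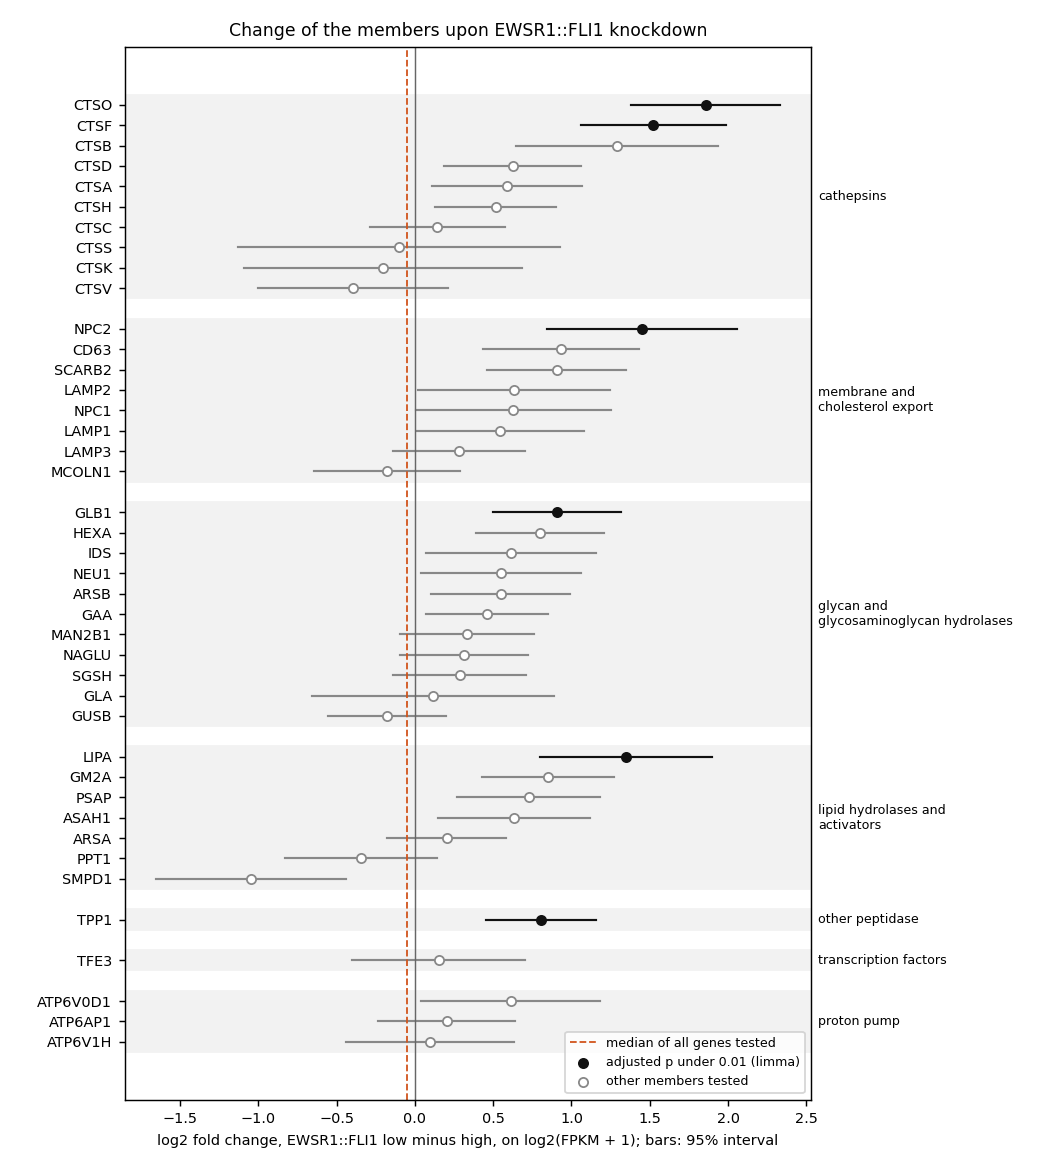
Log2 fold change (EF low minus high, log2(FPKM + 1) scale) of the 41 lysosomal genes tested, grouped by role and ordered by size, with 95% intervals of limma. Filled points are the 6 genes with an adjusted p under 0.01, the solid line marks 0 and the dashed line the median of all genes tested, -0.05. CTSO, at 1.86, lies farthest right and SMPD1, at -1.05, farthest left.

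Among the cathepsins CTSO and CTSF rose. CTSO (ENSG00000256043, GRCh37 chr4:156842732-156875064, minus strand) encodes a widely expressed cysteine peptidase. Its level was 3.22, 4.58 and 4.62 FPKM in the EF high libraries, in the order of the replicate numbers, and 15.4, 15.5 and 22.2 FPKM in the EF low libraries. The groups did not overlap, and the ratio of their means was 4.28. Its log2 fold change was 1.86 (SE 0.21, adjusted p = 0.000589, limma), and the adjusted p stayed under 0.01 in the 15 alternatives run, with a highest value of 0.00545. CTSF (ENSG00000174080, GRCh37 chr11:66330935-66336350, minus strand) encodes another cysteine peptidase, and its promoter stretch with TCACGTG is printed above. It measured 2.08, 1.68 and 2.63 FPKM in EF high and 8.71, 9.44 and 6.02 FPKM in EF low libraries. Again the groups did not overlap, and EF low replicate 3 was the lowest of its group. The log2 fold change of CTSF was 1.52 (SE 0.21, adjusted p = 0.00145), and of the 6 fits that left out a library only the fit without EF high replicate 2 was not under 0.01 (adjusted p = 0.0129).

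CTSB (ENSG00000164733, GRCh37 chr8:11700033-11727042, minus strand) encodes the most abundant of the 11 cathepsins, a cysteine peptidase that is often secreted by tumour cells. It was measured at 27.6, 28.7 and 35.4 FPKM in EF high and at 48.7, 108 and 82.6 FPKM in EF low libraries. Each EF low library was above each EF high library, but replicate 1 lay far below the other two. With all libraries the log2 fold change of 1.29 (SE 0.28) had an adjusted p of 0.0149 and did not pass. Among the fits that left out a library, CTSB passed only without EF low replicate 1 (log2 fold change 1.61, adjusted p = 0.000649, limma). In the others its adjusted p was up to 0.0708. CTSD, the aspartic peptidase, and CTSA, a carboxypeptidase that also shields GLB1 and NEU1 in a complex, had log2 fold changes of 0.62 and 0.59 (adjusted p = 0.0513 and 0.0842). The aminopeptidase CTSH stood at 0.52 (adjusted p = 0.0637). In these 3 genes the groups did not overlap, yet none passed the test. CTSC, the dipeptidyl peptidase that activates serine proteases of immune cells, differed by 0.14 (adjusted p = 0.641), and its groups overlapped.

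CTSK, CTSS and CTSV, cysteine peptidases best known from osteoclasts, antigen-presenting cells and thymus or epidermis, had negative fold changes that did not pass. CTSK (ENSG00000143387, GRCh37 chr1:150767356-150782053, minus strand), the collagen-degrading peptidase of bone resorption, measured 16.1, 12.96 and 16.8 FPKM in EF high and 28.1, 8.55 and 9.08 FPKM in EF low libraries. EF low replicate 1 was above and the other two were below all EF high libraries. The log2 fold change was -0.20 (95% interval -1.09 to 0.69, adjusted p = 0.762) with all libraries and -0.72 (adjusted p = 0.0136) without replicate 1. Leaving out replicate 2 or 3 of EF low gave 0.08 or 0.04, so the sign of CTSK rested on which library was used. CTSS also split the EF low group, at 3.18, 16.6 and 6.06 FPKM, against 5.57, 8.34 and 9.46 FPKM in EF high libraries, and its log2 fold change of -0.10 (adjusted p = 0.905) became 0.37 without replicate 1 and 0.04 without EF high replicate 3. For CTSV, whose sequence is close to that of CTSL, the log2 fold change was -0.39 (adjusted p = 0.339). CTSZ was close to the limit of detection, with 2, 1 and 0 reads in EF high and 4, 3 and 1 reads in EF low libraries, where the limit was taken as 3 reads. The 14 listed markers of macrophages and osteoclasts, cell types rich in these peptidases, were near 0. They summed to 3.89 to 4.61 FPKM in EF high and 3.38 to 7.18 FPKM in EF low libraries. The highest sum was in EF low replicate 1, which also had the highest CTSK, but the lowest CTSS of the 6 libraries and the lowest CD68, given below. A link between these values was not tested. Of the 14 markers 1, 1 and 2 were at 0 in the EF high libraries and none in the EF low libraries. The highest value of any of these 14 markers in any library was 1.35 FPKM. PTPRC lay between 0.260 and 0.667 FPKM and CSF1R between 0.223 and 0.374 FPKM. The 1 tested marker, DCSTAMP, had EF low libraries above all EF high libraries (log2 fold change 0.66, adjusted p = 0.0697, limma). CD68 and ACP5, also known from these cell types, were kept in other lists. CD68 measured 5.39, 8.72 and 8.56 FPKM in EF high and 4.67, 19.2 and 17.8 FPKM in EF low libraries. Its adjusted p was 0.367 (limma), or 0.00529 without EF low replicate 1 and up to 0.709 without another library. ACP5, at 0.474 to 0.762 FPKM in EF high and 1.37 to 4.64 FPKM in EF low libraries, is described below.

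**Figure D2:**
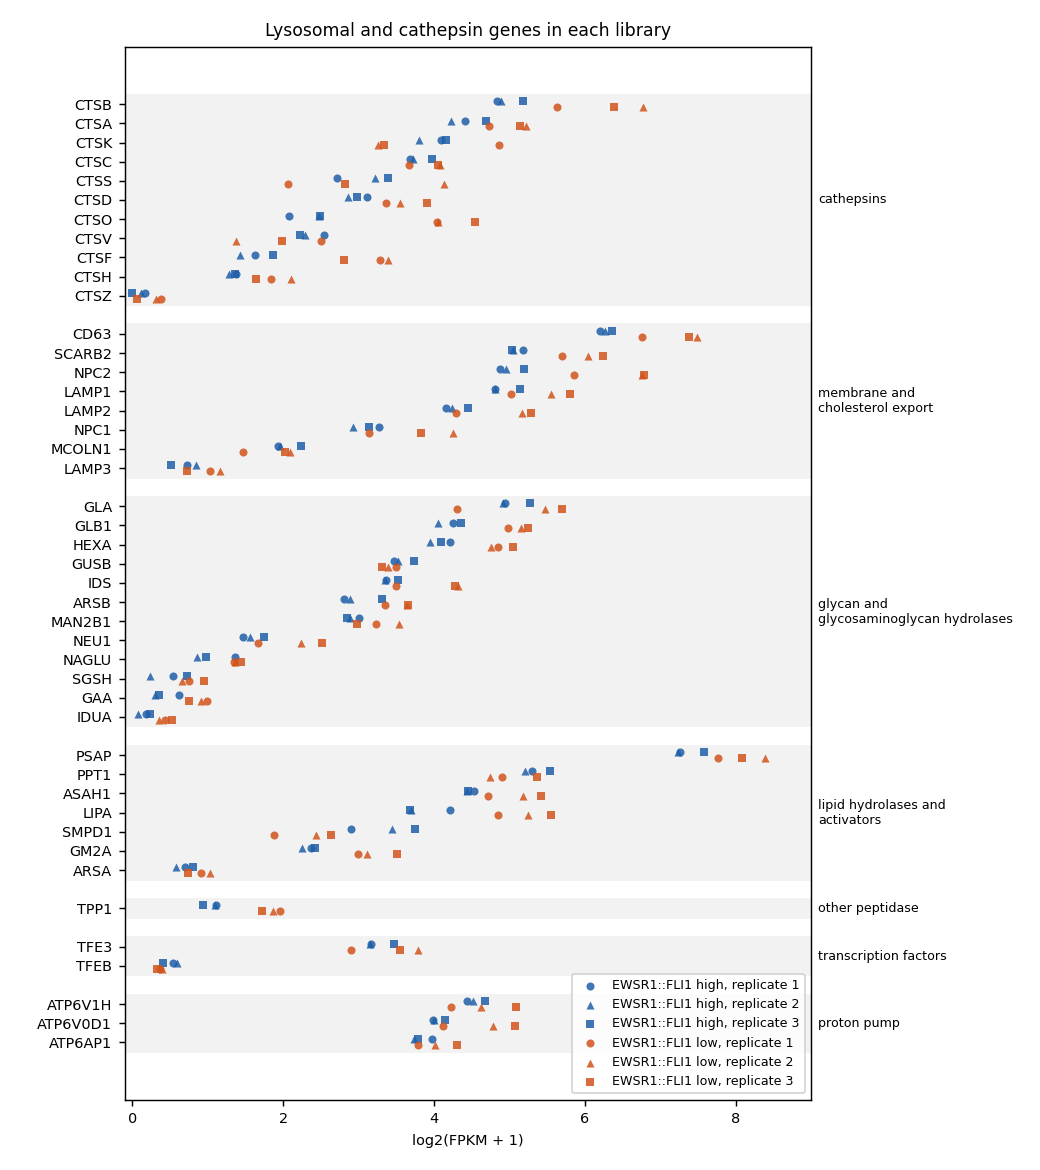
Level of the 44 lysosomal genes in each of the 6 libraries as log2(FPKM + 1), grouped by role, with blue points for EF high and orange points for EF low and a marker shape for each replicate number. CTSO and CTSF show orange points to the right of all blue points, CTSK shows EF low replicate 1 on the far side from replicates 2 and 3, and PSAP is the highest gene in every library.

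Summed over the 11 cathepsins, the level was 101, 97.8 and 121 FPKM in EF high and 158, 226 and 195 FPKM in EF low libraries, so the groups did not overlap. CTSB made up 27.4%, 29.3% and 29.3% of this sum in EF high libraries. In EF low libraries its share was 30.8%, 47.8% and 42.4%, highest in replicate 2. The share of CTSO went from 3.19%, 4.68% and 3.83% to 9.72%, 6.87% and 11.4%. CTSC, which differed little in level, went from shares of 11.7%, 12.5% and 12.2% to shares of 7.42%, 7.06% and 8.01%. CTSK held 15.95%, 13.3% and 14.0% in EF high, and 17.8%, 3.78% and 4.65% in EF low libraries. CTSL is not among these 11 and is described with the other lysosomal enzymes below.

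**Figure D3:**
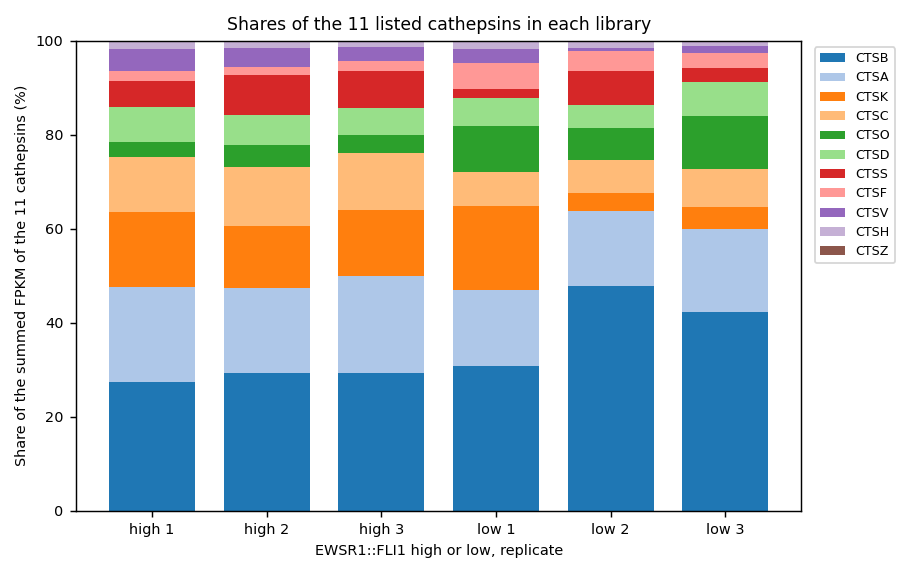
Share (%) of each of the 11 listed cathepsins in their summed FPKM, as stacked bars from 0 to 100% for each library. CTSB fills 27.4% to 29.3% of the EF high bars and 30.8% to 47.8% of the EF low bars, and the CTSK part is thin in EF low replicates 2 and 3 only.

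Of the 8 membrane and cholesterol export proteins, 1 rose. NPC2 (ENSG00000119655, GRCh37 chr14:74942895-74960880, minus strand) encodes the soluble carrier that hands cholesterol to NPC1 for export from the lysosome. Its level was 28.3, 30.1 and 35.7 FPKM in EF high and 56.8, 107 and 109 FPKM in EF low libraries. The groups were separate, and replicate 1 was again the lowest of the EF low libraries. The log2 fold change was 1.45 (SE 0.27, adjusted p = 0.00689), and it lay between 1.29 and 1.76 when a library was left out, with an adjusted p of up to 0.0403 and under 0.01 only without EF low replicate 1. NPC1, the membrane transporter itself, stood at 0.63 (adjusted p = 0.143) with overlapping groups, and at 0.93 (adjusted p = 0.00957) without EF low replicate 1. Leaving out another library gave NPC1 an adjusted p of up to 0.374 (limma). Exons of NPC2 overlap ISCA2 on the other strand, which measured 7.84 to 9.55 FPKM in EF high and 5.83 to 9.08 FPKM in EF low libraries. CTSA, CTSZ, GLA, HEXA, IDUA and SGSH also share exon sequence with a gene on the other strand. PLTP, which overlaps CTSA, went from 8.01 to 9.055 FPKM in EF high to 12.9 to 18.7 FPKM in EF low libraries. NELFCD, which overlaps CTSZ, measured 64.4 to 74.15 FPKM in EF high and 39.6 to 61.4 FPKM in EF low libraries. Their part in the values of CTSA and CTSZ was not tested. Whether counting used strand is not given in the sources used here.

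CD63, a tetraspanin of late endosomes and exosomes, measured 72.6, 75.6 and 81.2 FPKM in EF high and 107, 178 and 165 FPKM in EF low libraries, and SCARB2, the receptor that carries glucocerebrosidase to the lysosome, measured 35.1, 32.1 and 31.7 and 50.96, 64.8 and 74.3 FPKM. Neither gene had overlapping groups, and their log2 fold changes of 0.93 and 0.91 had adjusted p-values of 0.0193 and 0.0134. Without EF low replicate 1 the adjusted p-values were 0.00047 and 0.00112. LAMP1 (ENSG00000185896, GRCh37 chr13:113951554-113977987, plus strand), a main glycoprotein of the lysosomal membrane, was measured at 27.01, 26.97 and 34.2 FPKM in EF high and at 31.6, 45.99 and 54.97 FPKM in EF low libraries. EF low replicate 1 lay within the range of the EF high libraries and the other two lay above it. Its log2 fold change was 0.54 (95% interval 0.01 to 1.08, adjusted p = 0.139), or 0.76 (adjusted p = 0.0113) without that library. LAMP2, which takes part in chaperone-mediated autophagy, also had EF low replicate 1 within the range of the EF high libraries, with 16.9, 17.9 and 20.8 FPKM in EF high and 18.6, 35.03 and 37.9 FPKM in EF low libraries (log2 fold change 0.63, adjusted p = 0.135). Without it the log2 fold change of LAMP2 was 0.94 (adjusted p = 0.0029). LAMP3, the form known from dendritic cells, was low throughout, at 0.425 to 1.24 FPKM. The calcium channel MCOLN1, whose stretch with 2 TCACGTG sites is printed above, had a log2 fold change of -0.18 (95% interval -0.64 to 0.29, adjusted p = 0.583) and shares exon sequence with PNPLA6 on the same strand.

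Among the hydrolases of glycans and glycosaminoglycans 1 of the 11 tested rose. GLB1 (ENSG00000170266, GRCh37 chr3:33038101-33138694, minus strand) encodes the acid beta-galactosidase that is lacking in GM1 gangliosidosis. It measured 18.1, 15.6 and 19.5 FPKM in EF high and 30.7, 34.7 and 36.8 FPKM in EF low libraries. The groups were clearly apart, with a ratio of means of 1.92. The log2 fold change was 0.91 (SE 0.18, adjusted p = 0.00933), and its adjusted p reached 0.0656 when a library was left out and was under 0.01 only without EF low replicate 1. Exons of GLB1 overlap TMPPE on the same strand, at 1.201 to 1.79 FPKM in EF high and 1.64 to 2.02 FPKM in EF low libraries. HEXA, the subunit of hexosaminidase that is lacking in Tay-Sachs disease, measured 17.6, 14.4 and 16.1 FPKM in EF high and 27.7, 26.1 and 32.2 FPKM in EF low libraries. Its groups did not overlap, but the adjusted p of 0.016 did not pass (log2 fold change 0.80), and without EF low replicate 1 it was 0.00762 (log2 fold change 0.82).

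The enzymes that degrade heparan and dermatan sulfate did not pass the test. The iduronate sulfatase IDS, the arylsulfatase ARSB, the sulfamidase SGSH and the glucosaminidase NAGLU had log2 fold changes of 0.61, 0.55, 0.29 and 0.31, with adjusted p-values of 0.106, 0.0815, 0.324 and 0.254. IDS, which has a near-identical pseudogene, measured 9.30, 9.22 and 10.4 FPKM in EF high and 10.3, 18.9 and 18.3 FPKM in EF low libraries, so EF low replicate 1 fell among the EF high libraries, and without it the log2 fold change was 0.88 (adjusted p = 0.00327). The iduronidase IDUA had 3, 1 and 3 reads in EF high and 7, 5 and 15 reads in EF low libraries and was not tested. GUSB, the beta-glucuronidase, which has several pseudogenes, differed by -0.18 (95% interval -0.56 to 0.20, adjusted p = 0.497). The sialidase NEU1 stood at 0.55 (adjusted p = 0.122). The glycogen-degrading glucosidase GAA, at 0.46 (adjusted p = 0.0945), had EF low libraries above all EF high libraries but no level over 0.983 FPKM. MAN2B1, the acid alpha-mannosidase, stood at 0.33 (adjusted p = 0.252). The galactosidase GLA, lacking in Fabry disease, measured 29.7, 29.02 and 37.6 FPKM in EF high and 18.7, 43.3 and 50.7 FPKM in EF low libraries. Replicate 1 of EF low was below and the other two were above all EF high libraries, and the log2 fold change of 0.11 (adjusted p = 0.851) became 0.54 (adjusted p = 0.0396) without replicate 1, -0.04 without replicate 2 and -0.15 without replicate 3.

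In the group of lipid hydrolases and activators LIPA rose. LIPA (ENSG00000107798, GRCh37 chr10:90973326-91174314, minus strand) encodes the acid lipase that frees cholesterol from the esters taken up with lipoproteins. Its level was 17.6, 11.99 and 11.8 FPKM in EF high and 27.7, 36.97 and 45.9 FPKM in EF low libraries. The groups did not overlap, with a ratio of means of 2.67 and a log2 fold change of 1.35 (SE 0.24, adjusted p = 0.00608). Leaving out a library gave adjusted p-values of up to 0.0407, and only the fit without EF low replicate 1 was under 0.01. Annotated exons of LIPA overlap IFIT3 and IFIT2 on the other strand, and IFIT3 went from 6.45 to 6.95 FPKM in EF high to 16.1 to 22.9 FPKM in EF low libraries. Its part in the LIPA values was not tested.

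PSAP, the precursor of the saposins that help sphingolipid hydrolases, was the most abundant of the 44 genes. It measured 152, 149 and 189.6 FPKM in EF high and 217, 335 and 271 FPKM in EF low libraries. The groups were separate, and the log2 fold change of 0.73 (SE 0.20) had an adjusted p of 0.0353, or 0.00522 without EF low replicate 1. GM2A, the activator that presents GM2 ganglioside to hexosaminidase, and the ceramidase ASAH1 had log2 fold changes of 0.85 and 0.63 (adjusted p = 0.014 and 0.0707) and no overlap between groups. Without EF low replicate 1 these were 0.96 and 0.83 (adjusted p = 0.00639 and 0.00408). SMPD1 (ENSG00000166311, GRCh37 chr11:6411670-6416228, plus strand) encodes the acid sphingomyelinase and went the other way. It measured 6.48, 9.85 and 12.4 FPKM in EF high and 2.68, 4.39 and 5.19 FPKM in EF low libraries. Each EF low library was below each EF high library, with a log2 fold change of -1.05 (SE 0.27) and an adjusted p of 0.0262, which did not pass. The thioesterase PPT1 had a log2 fold change of -0.35 (95% interval -0.83 to 0.14, adjusted p = 0.294), and the sulfatase ARSA, at 0.494 to 1.05 FPKM, stood at 0.20 (adjusted p = 0.433).

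TPP1 (the tripeptidyl peptidase that is lacking in a form of neuronal ceroid lipofuscinosis) rose from a low level. It measured 1.16, 1.14 and 0.913 FPKM in EF high and 2.90, 2.66 and 2.31 FPKM in EF low libraries. All EF low libraries were above 2 FPKM and no EF high library was. The log2 fold change of 0.81 (SE 0.16, adjusted p = 0.00859) corresponded to a ratio of means of 2.45, and in the 6 fits without a library its adjusted p was between 0.0103, without EF low replicate 1, and 0.046.

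**Figure D4:**
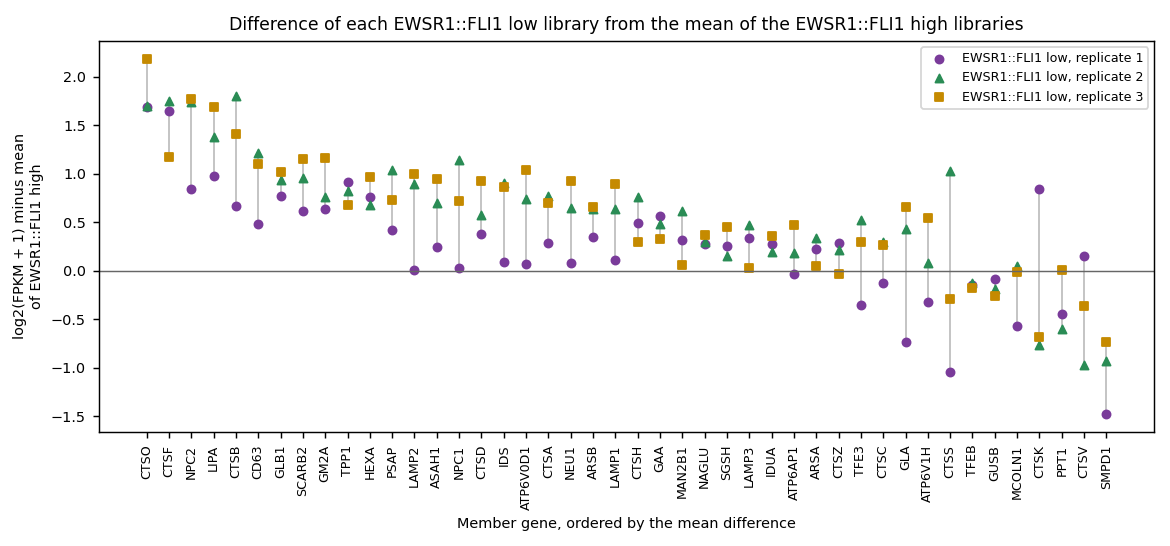
Difference of each EF low library from the mean of the EF high libraries, as log2(FPKM + 1), for the 44 genes ordered by their mean difference, with a colour and shape for each of the 3 libraries and a grey line over their range. Replicate 1 is the lowest point for 28 of the 41 genes tested, and for CTSK it is the highest.

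Of the transcription factors, TFE3 showed no change that passed the test, and TFEB was not in the main test. TFE3 (ENSG00000068323, GRCh37 chrX:48886237-48900936, minus strand) measured 7.93, 7.89 and 10.1 FPKM in EF high and 6.49, 12.8 and 10.8 FPKM in EF low libraries. EF low replicate 1 was the lowest of the 6 libraries and replicate 2 the highest. Its log2 fold change was 0.15 (95% interval -0.40 to 0.71, adjusted p = 0.705). TFEB (ENSG00000112561, GRCh37 chr6:41651716-41703997, minus strand) was scarce, with 13, 11 and 7 reads in EF high and 7, 7 and 11 reads in EF low libraries. This was 0.453, 0.505 and 0.330 FPKM and 0.288, 0.312 and 0.258 FPKM, so TFEB was under the filter. In FPKM each EF low library was below each EF high library, on few reads. When all genes were tested without a filter its log2 fold change was -0.15 (adjusted p = 0.462). TFEB and TFE3 are regulated largely by phosphorylation and entry into the nucleus, which RNAseq does not measure. The pump subunits ATP6V0D1 and ATP6V1H and the accessory protein ATP6AP1 had log2 fold changes of 0.61, 0.10 and 0.20 (adjusted p = 0.124, 0.817 and 0.499), and the groups overlapped for each. EF low replicate 1 was the lowest of its group in all 3, and without it ATP6V0D1 stood at 0.88 (adjusted p = 0.00449).

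Per length, the 44 genes together measured 697, 676 and 802 FPKM in EF high and 921, 1368 and 1340 FPKM in EF low libraries. This was 0.198% to 0.219% of all FPKM in EF high and 0.360% to 0.404% in EF low libraries, and the summed FPKM of all genes was lowest in EF low replicate 1. PSAP and CD63 were first and second in mean level in both groups. PPT1, in place 3 in EF high cells at a mean of 39.9 FPKM, was in place 12 in EF low cells at 31.6 FPKM. NPC2 went from place 6 to place 3, CTSB from 7 to 4, LIPA from 17 to 8 and CTSO from 29 to 17. Most neighbours in these orders did not differ beyond their spread: the ranges of 33 of the 43 neighbouring pairs overlapped in EF high and of 38 of the 43 in EF low cells. The median coefficient of variation of the 41 tested genes was 13.4% in EF high and 24.6% in EF low libraries, close to the values over all genes tested, 13.5% and 25.97%. Placing genes by level is less certain where the length that the FPKM values imply departs from that of the longest annotated transcript. Relative to the median gene, it was 3.59 times that length for NEU1 and 1.67 times for CD63. For CTSH it was 0.21 times, and for GLA, CTSA, HEXA and CTSK 0.34 to 0.39 times. The shares of the cathepsins carry the same limit.

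Genes with and without the promoter motif were set side by side as a description. The median log2 fold change was 0.55 for the 9 genes with TCACGTG and 0.52 for the 19 tested genes without it. For CACGTG it was 0.57 for the 10 genes with the motif and 0.42 for the 18 tested genes without. Of the 5 genes that rose and had a promoter window, CTSF held TCACGTG and NPC2, GLB1, LIPA and TPP1 did not. The genes with TCACGTG ranged from -0.18 for MCOLN1 to 1.52 for CTSF. The 3 genes with GGAAGGAA, ARSB, NPC1 and NPC2, ranged from 0.55 to 1.45, with a median of 0.63, and 1 of them, NPC2, rose. For the 25 tested genes without it the median was 0.545 and the range -1.05 to 1.52, and 4 of them rose.

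The remaining genes of the lysosomal system were taken from 7 lists with 156 genes, of which 139 were tested. Of these 139 genes 5 rose (3.6%) and 1 fell (0.72%), where 4.51% of all genes rose and 3.37% fell. Without EF low replicate 1 the counts were 26 and 1, where 9.37% of all genes were higher and 4.68% lower. The 30 other lysosomal enzymes tested had a median log2 fold change of 0.52, and 3 of them rose while none fell by limma (16 higher and none lower at an unadjusted p under 0.05, where 15.6% and 18.7% of all genes were higher and lower). With limma-voom on recovered reads 5 of them rose and none fell, against 6.1% and 5.06% of all genes. Without EF low replicate 1, 9 of them rose, against 9.37% of all genes. MANBA, the beta-mannosidase, went from 5.61, 5.53 and 5.30 FPKM to 17.7, 45.8 and 37.7 FPKM (log2 fold change 2.32, adjusted p = 0.00148). IFI30, the thiol reductase of antigen processing, went from 0.927, 0.732 and 1.13 FPKM to 2.63, 6.40 and 7.12 FPKM (log2 fold change 1.65, adjusted p = 0.00555). The carboxypeptidase PRCP went from 4.02, 3.36 and 4.21 FPKM to 7.34, 10.3 and 11.3 FPKM (log2 fold change 1.12, adjusted p = 0.00522). In all 3 genes the groups were separate and EF low replicate 1 was the lowest of its group. MANBA did not pass without EF high replicate 2 or 3 (adjusted p = 0.0115 and 0.0106), and IFI30 and PRCP passed only without EF low replicate 1 among the fits that left out a library, with adjusted p-values of up to 0.0328 and 0.0368 in the others. CTSL, the cysteine peptidase closest to CTSV, was named after its values were seen. It measured 24.5, 30.3 and 29.2 FPKM in EF high and 47.7, 127 and 120.3 FPKM in EF low libraries, about the level of CTSB. Its log2 fold change of 1.66 had an adjusted p of 0.0121 with all libraries (limma). Without EF low replicate 1 the adjusted p was 8.78e-05, and without another library it was up to 0.0484.

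Other parts of the system had medians nearer to that of all genes, and their counts are to be read against the following shares. At an unadjusted p under 0.05, 2415 of all 15504 genes were higher and 2900 lower (15.6% and 18.7%). By limma-voom 6.1% of all genes were higher and 5.06% lower. Without EF low replicate 1, 9.37% were higher. For the 26 other lysosomal membrane proteins tested the median log2 fold change was 0.22, and none passed (5 higher and 1 lower at an unadjusted p under 0.05, and none by limma-voom), while 6 rose without EF low replicate 1. The 17 other subunits of the proton pump had a median of -0.13, and none passed (1 higher and 1 lower at an unadjusted p under 0.05, and none by limma-voom). Of the 21 regulators of TFEB and mTORC1, with a median of -0.01, none passed (3 higher and 5 lower at an unadjusted p under 0.05, and 1 higher by limma-voom). MITF and TFEC, the relatives of TFEB and TFE3 on that list, were also named after their values were seen. MITF, the gene that limma-voom called, was measured at 0.375, 0.350 and 0.551 FPKM in EF high and at 0.923, 1.84 and 1.68 FPKM in EF low libraries. With a mean of 0.425 FPKM in EF high and 1.48 FPKM in EF low, MITF passed the filter only through its EF low libraries. All EF low libraries were higher, with a log2 fold change of 0.78 and an adjusted p of 0.0237, which did not pass. The adjusted p of MITF was 0.00528 with limma-voom, 0.00345 without EF low replicate 1 and 0.000295 with sample quality weights, within a range of 0.000295 to 0.0942 over its 14 alternatives. TFEC had its lower values in EF low, with 4.03, 5.68 and 6.28 FPKM in EF high and 1.65, 2.11 and 4.10 FPKM in EF low libraries. EF low replicate 3 lay just above the lowest EF high library, and the log2 fold change of -0.85 did not pass (adjusted p = 0.0517, and 0.00552 to 0.176 over its 15 alternatives).

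Among the 18 genes of mannose 6-phosphate sorting, which carries new hydrolases to the lysosome, 1 rose and 1 fell, and the median was 0.01. Over all genes tested 4.51% rose and 3.37% fell. SORL1, a sorting receptor, rose from 1.81, 1.57 and 1.41 FPKM to 6.98, 5.08 and 4.85 FPKM (log2 fold change 1.34, adjusted p = 0.00128), and did not pass without EF high replicate 2 or 3 (adjusted p = 0.0114 and 0.0103). AP1S3, a subunit of the adaptor complex of the trans-Golgi network, fell from 6.20, 5.53 and 5.81 FPKM to 0.974, 1.75 and 1.37 FPKM (log2 fold change -1.55, adjusted p = 0.000566). Of the 10 inhibitors of cathepsins, the cystatins and KNG1, 3 were tested, with a median of 0.19, and none passed (1 higher and 1 lower at an unadjusted p under 0.05, and none by limma-voom). Among the 24 autophagy genes, with a median of 0.22, WIPI1 rose and none fell by limma (5 higher and 1 lower at an unadjusted p under 0.05, and 2 higher by limma-voom). WIPI1, which binds phosphoinositides on the forming autophagosome, measured 1.24, 1.17 and 0.738 FPKM in EF high and 14.7, 32.95 and 27.4 FPKM in EF low libraries. The groups lay far apart, and the log2 fold change was 3.60 (SE 0.28, adjusted p = 0.000116), under 0.01 in the 15 alternatives run.

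**Figure D5:**
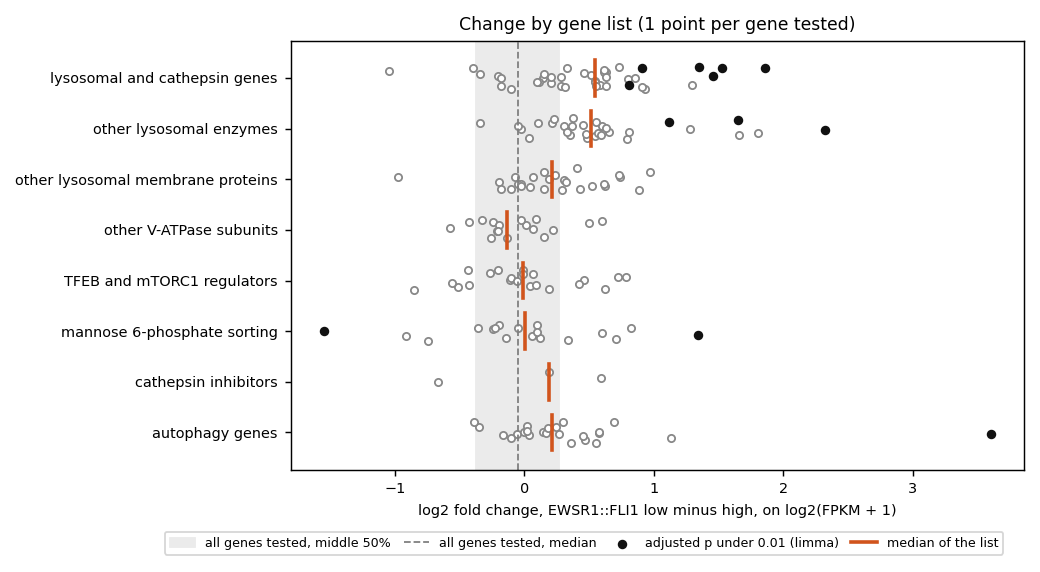
Log2 fold change (EF low minus high, log2(FPKM + 1) scale) of each gene tested, 1 point per gene, for the 44 lysosomal and cathepsin genes and the 7 other lists, with filled points at an adjusted p under 0.01 and an orange bar at the median of each list. The grey band holds the middle 50% of all genes tested. The medians of the lysosomal genes (0.55) and of the other lysosomal enzymes (0.52) lie to the right of the band, and the other medians lie within it.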

How the data were processed

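RNAseq of the 6 samples was processed by the authors in a BaseSpace workflow with paired-end reads mapped to GRCh37, and the submitters' processing notes name STAR 2.5.0b, Cufflinks 2.2.1, bedtools 2.17.0 and DESeq2 1.6.3. FPKM values for 26364 gene symbols were deposited by the authors, 1 per library and symbol, without pooling. They also deposited a table of their own comparison. From it only the mean signal per gene (the authors' mean of normalized counts) was used, and its fold changes and p-values were not. With that mean, 100% of the deposited FPKM values above 0 came out as whole reads (within 0.1 reads), which gave the reads per gene and the detection limit of 3 reads. Limits of this kind cover counting error only.

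Groups were taken from the sample titles and treatments. The 15504 genes whose mean FPKM reached 0.5 were compared with limma 3.58.1 in R 4.3.3 (lmFit, eBayes with trend) on log2(FPKM + 1) across all 6 libraries with no replicate block, with Benjamini-Hochberg adjustment over all genes tested and a threshold of 0.01, the level used in the study. The steps were tested on simulated data. Replicates of a group differed by more than sampling noise (chi-square per degree of freedom 4.25 to 6.27 in EF high and 20.2 to 31.5 in EF low pairs), and each library counted as 1 replicate. Tables and plots were made in Python 3.11.15 using pandas 2.3.3 and matplotlib 3.10.9. Coordinates of genes are those of GENCODE v44 on GRCh37, and promoter windows are those of RefSeq on GRCh38.p14.

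Values of every library are given for the genes with an adjusted p under 0.01 and for CTSB, LAMP1, CTSK, TFEB and TFE3, with others added after their values were seen. From the other lists, genes with an adjusted p under 0.01 and an absolute log2 fold change of at least 1 are named. The 44 genes, the other lists and the tests were chosen with earlier results of these data known. Alternatives were another pseudocount, filter, scaling, variance model and threshold, a replicate block, sample quality weights, limma-voom on recovered reads, and leaving out each library. Protein sequences were not used here.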

Additional observations from a re-analysis of the deposited data

How the results depend on the processing

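The fall of FLI1 held its direction and its side of the threshold in the 15 alternatives run (log2 fold change -1.82 to -1.37, and -1.68 to -1.46 when a library was left out). CTSO rose in the same 15, and CTSF in 14 of them. The count of lysosomal and cathepsin genes that rose (6) was 2 with no filter on low values, 14 with median-ratio scaling, 16 with quantile normalization, 23 with sample quality weights, 10 with limma-voom on recovered reads, 12 at an adjusted p under 0.05, and 1 to 16 when a library was left out. The count that fell (0) was 1 with sample quality weights, namely CTSV (log2 fold change -0.87, adjusted p = 0.00414, limma). At an adjusted p under 0.05 it was also 1, namely SMPD1 (adjusted p = 0.0262, limma). Over all genes, 700 higher became 456 with no filter, 2488 with quality weights, 1530 at 0.05 and 287 to 1452 when a library was left out. Over all genes, 522 lower became 297 with no filter, 813 with median-ratio scaling, 1000 with quantile normalization, 2257 with quality weights, 784 with limma-voom, 1537 at 0.05 and 156 to 726 when a library was left out. In the 7 other lists pooled, 5 higher became 3 with no filter, 20 with median-ratio scaling, 23 with quantile normalization, 44 with quality weights, 9 with limma-voom, 26 at 0.05 and 1 to 26 when a library was left out. The 1 lower in those lists became 2 with quantile normalization, 6 with quality weights and 3 at 0.05. Log2 fold changes that turned sign were those of genes that did not pass: CTSK 0.079 and 0.040 without EF low replicate 2 and 3 (-0.72 to 0.079 when a library was left out), CTSS 0.82 with quality weights, 0.036 without EF high replicate 3 and 0.37 without EF low replicate 1 (-0.67 to 0.37), MCOLN1 0.058 with quality weights and 0.017 without EF low replicate 1 (-0.29 to 0.017), GLA -0.043 and -0.15 without EF low replicate 2 and 3 (-0.15 to 0.54), TFE3 -0.032 without EF low replicate 2 (-0.032 to 0.41), and ATP6V1H -0.12 without EF low replicate 3 (-0.12 to 0.31). The cause of these moves was not tested.

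With the replicate number as a block, 8 lysosomal genes rose (CTSB and GM2A in addition to the 6) and SMPD1 fell (adjusted p = 0.00304), so the count that fell was 1. Over all genes 916 were higher and 786 lower, and in the 7 lists 9 were higher. The numbers were not taken as a pairing in the main fit, and whether they mark one was not settled. Between libraries with the same number, deviations from the group mean had r = 0.27, 0.09 and 0.12. Libraries with different numbers had r = -0.29, -0.05, -0.01, -0.09, -0.24 and 0.19. The last is EF high replicate 3 with EF low replicate 2, above its value with EF low replicate 3.

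Depth limits CTSZ, IDUA and TFEB, each with 15 reads or fewer in every library, and 3 libraries per group limit the rest: 95% intervals of genes that did not pass often reached both sides of 0.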

Other observations

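Among genes of the other lists, picked after their values were seen, RNASET2, ACP5 and OPTN had EF low libraries above all EF high libraries without passing the threshold. RNASET2, the acid ribonuclease, measured 11.4, 13.05 and 17.5 FPKM in EF high and 23.2, 79.5 and 69.3 FPKM in EF low libraries (log2 fold change 1.80, adjusted p = 0.0182, limma). ACP5, the tartrate-resistant acid phosphatase known from osteoclasts, measured 0.474, 0.762 and 0.571 FPKM and 1.37, 3.37 and 4.64 FPKM (log2 fold change 1.28, adjusted p = 0.0174). In both genes EF low replicate 1 was the lowest of its group, and without it the adjusted p-values were 0.000203 and 0.000711. Without another library they were up to 0.0733 and 0.0657 (limma). OPTN, a receptor of selective autophagy, measured 33.4, 32.5 and 32.1 FPKM in EF high and 49.2, 109 and 71.9 FPKM in EF low libraries (log2 fold change 1.13, adjusted p = 0.0207), and 0.00142 without that library. OSTM1, a partner of a lysosomal chloride transporter, went the other way, with 14.3, 16.1 and 18.99 FPKM and 4.73, 10.4 and 9.50 FPKM (log2 fold change -0.98, adjusted p = 0.0358).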
